A study of Mus musculus with 2 samples.

Results

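The nicotinic acetylcholine receptor genes Chrna1, Chrnd, Chrne and Chrna9, the synaptic genes Musk, Colq and Ache, and the denervation-response genes Runx1, Hdac4 and Ncam1 were followed in nuclei of the mouse quadriceps, which extends the knee. They are 10 of the 53700 features measured and were taken by symbol. The comparison was of wild-type (WT) C57BL/6N mice with mice of the same strain lacking Cavin1 (labelled PTRF, its older symbol), both 3 months old, with 1 single-nucleus library of each genotype. The labels do not say how the gene was removed, how many mice went into a library or of which sex they were. Cavin1 encodes a coat protein of caveolae, the small pits of the plasma membrane.

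A muscle fibre is one cell with many nuclei. The few that lie under the motor nerve ending transcribe the genes of the synapse, and most of the others hold them silent as long as the nerve is active. When the nerve is cut, receptor subunits, Musk, Runx1 and Ncam1 are known to come on along the whole fibre, and Hdac4 is known to take part in that response. Junction nuclei were those with at least 3 unique molecular identifiers (UMIs, each taken as 1 captured transcript) summed over Chrne, Colq, Etv5, Ache and Ufsp1. The remaining nuclei with at least 10 UMIs of Ttn, the gene of the giant sarcomere protein titin, are called other myonuclei.

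The WT library held 10272 nuclei with a median of 703 UMIs and the knockout library 7762 with a median of 1562. The knockout nuclei thus held more UMIs each, and depth below means UMIs per nucleus. Cavin1 gave 75 UMIs in WT and 2 in the knockout. Transcripts of 4 Y-linked genes were found in both libraries, but Xist, the transcript of the silenced X chromosome, gave 4 UMIs in WT and 4358 in the knockout. In the knockout, 1527 nuclei carried Xist alone, 3103 carried Y-linked transcripts alone and 221 carried both, so the knockout library mixed nuclei of both sexes. The libraries shared 24 cell barcodes. With 1 library per genotype no difference between genotypes can be tested, and each interval given is at 95% and covers counting error only. A gene was called higher or lower where the ratio passed 1.5-fold and its interval left out 1, over genes with at least 20 UMIs in the 2 sums together.

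Junction nuclei numbered 22 in WT, 0.214% of nuclei (exact binomial interval 0.134 to 0.324), and 34 in the knockout, 0.438% (0.304 to 0.612). The share was 0.224 percentage points higher in the knockout (0.0502 to 0.415). Since a deeper nucleus reaches 3 UMIs more easily, each nucleus was also thinned to 500 UMIs. That left 4 WT and 9 knockout junction nuclei, 0.0487% (0.0133 to 0.125) and 0.116% (0.053 to 0.22), and the intervals overlapped; 2055 WT nuclei were too shallow to enter. At 1000 UMIs the shares were 0.139% and 0.224%, with 7393 WT and 1950 knockout nuclei left out. Other myonuclei numbered 9816 in WT and 5945 in the knockout.

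Every junction nucleus had at least 10 Ttn UMIs. Satellite-cell markers (5 genes) and Schwann-cell markers (6 genes, among them Sox10) gave 0 UMIs in the junction nuclei of both libraries, as did lymphocyte, lymphatic endothelial and tenocyte markers. Adipocyte markers gave 0 UMIs in WT and 18 in the knockout (201 CPM, 4 of 5 markers detected), and blood endothelial markers 0 and 6 (66.9 CPM). Macrophage markers gave 5 UMIs in each library (155 and 55.7 CPM), fibro-adipogenic markers 2 in each, and mural markers 0 and 2. By those markers 0 WT and 1 knockout junction nucleus fell in a non-muscle class, and the part of such RNA in the results was not tested. At the edge of the rule, 10 WT and 15 knockout nuclei had exactly 3 gate UMIs and 13 WT and 35 knockout nuclei had exactly 2. All 3 gate UMIs or more came from a single gate gene in 1 WT and 6 knockout nuclei. Musk was found in 17 of 22 WT and 23 of 34 knockout junction nuclei and Ncam1 in 19 and 22, while 0 WT and 5 knockout junction nuclei had neither.

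The upstream sequences of members that stood high in junction nuclei are shown for the 2 short motifs known from synaptic promoters. The N-box, CCGGAA, is bound by ETS factors such as GABP and Etv5, and the E-box, CANNTG, by the myogenic factors. RefSeq promoters (GRCm38.p6) were found for 7 of the 10 genes and not for Chrnd, Colq and Ncam1. The 250 bases before the start site of Chrne (chr11:70619195-70619444, minus strand), Musk (chr4:58285712-58285961, plus strand) and Ache (chr5:137288004-137288253, plus strand) are printed 5′ to 3′, with N-box and E-box letters, found on either strand, in capitals.
Chrne: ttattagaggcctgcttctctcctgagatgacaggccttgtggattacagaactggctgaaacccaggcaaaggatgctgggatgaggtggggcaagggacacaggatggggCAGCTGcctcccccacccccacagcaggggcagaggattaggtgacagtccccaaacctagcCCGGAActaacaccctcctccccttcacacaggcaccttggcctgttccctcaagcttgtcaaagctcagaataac
Musk: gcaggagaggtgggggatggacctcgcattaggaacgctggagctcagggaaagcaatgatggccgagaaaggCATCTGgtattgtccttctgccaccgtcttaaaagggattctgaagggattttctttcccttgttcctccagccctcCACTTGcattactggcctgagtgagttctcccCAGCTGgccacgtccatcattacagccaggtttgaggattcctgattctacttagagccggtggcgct
Ache: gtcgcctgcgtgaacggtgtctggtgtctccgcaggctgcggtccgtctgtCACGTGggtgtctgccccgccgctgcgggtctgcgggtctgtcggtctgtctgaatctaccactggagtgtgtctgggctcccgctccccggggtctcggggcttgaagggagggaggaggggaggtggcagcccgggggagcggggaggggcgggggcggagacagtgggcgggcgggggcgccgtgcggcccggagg
Chrne held 1 N-box, 76 bases before the start, and 1 E-box. Musk held 3 E-boxes and Ache 1, each without an N-box. Among the other matched promoters, that of Chrna1 held 3 E-boxes, that of Chrna9 2 and that of Hdac4 neither motif, while Runx1 held 3 E-boxes in one of its promoters and 1 N-box in another. An N-box stood in 12% of 32851 promoter windows of this length, an E-box in 66.2% and both in 6.75%.

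The receptor subunits were sparse. Chrne, the epsilon subunit of the adult receptor (chr11:70614883-70619216, minus strand), gave 18 UMIs in WT and 23 in the knockout junction nuclei, or 557 and 256 CPM (counts of a gene scaled to the total count of the same nuclei). Single junction nuclei held from 0 to 5 Chrne UMIs in WT, with a median of 1, and from 0 to 3 in the knockout, with a median of 0.5. The 2 libraries overlapped nucleus by nucleus, and the summed level was 0.457 times that of WT (0.237 to 0.904). Chrne is a gate gene, so the count was repeated with nuclei chosen on the other 4 gate genes: 6 UMIs in 15 WT nuclei and 12 in 28 knockout nuclei gave 272 and 167 CPM and a ratio of 0.591 (0.213 to 1.99), from fewer than 20 UMIs. Chrne overlaps 4930544D05Rik on the opposite strand, and reads of such a pair cannot be told apart where strand was not used in counting, which no source used here states.

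Chosen without itself, Chrne was 47.5 times (15.6 to 102) as high in junction as in other myonuclei of WT and 39.3 times (18.6 to 71.5) in the knockout. In other myonuclei it stood at 4.89 CPM in WT against 3.59 CPM in the knockout, a ratio of 0.734 (0.481 to 1.12). Nuclei with fewer than 10 Ttn UMIs held 16.8 CPM in WT (5 UMIs) against 0.867 CPM in the knockout (2 UMIs), so the WT level of other myonuclei was not above that of nuclei with little Ttn. When every nucleus was thinned to 500 UMIs, Chrne was called lower in the other myonuclei of the knockout (24 and 5 UMIs, log2 -1.67), and at 1000 UMIs it was not (15 and 22 UMIs, log2 -0.28).

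Chrna1 and Chrnd, the alpha and delta subunits, were close to the limit of detection. Chrna1 (chr2:73563215-73580338, minus strand) gave 2 UMIs in WT and 4 in knockout junction nuclei, and 12 and 3 in other myonuclei. Chrnd (chr1:87190607-87200070, plus strand) gave 1 and 2 UMIs in junction nuclei and 3 and 1 in other myonuclei. Neither reached the 20 UMIs needed for a call. In other myonuclei the Chrna1 ratio was 0.193 (0.0312 to 0.639), an interval that left out 1, and that of Chrnd was 0.296 (0.00438 to 2.86).

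Chrna9, a subunit best known from sensory hair cells (chr5:65934921-65977326, plus strand), gave 0 UMIs in the junction nuclei of both libraries, where a count of 0 allows up to 114 CPM in WT. In other myonuclei it was lower in the knockout, with 45 UMIs in WT and 6 in the knockout, 4.78 and 0.44 CPM, 0.0985 times the WT level (0.0321 to 0.216). WT nuclei with fewer than 10 Ttn UMIs stood at 10.1 CPM (2.08 to 29.4), from 3 UMIs, an interval that holds the level of WT myonuclei. Chrna9 shares its strand with 4930480C01Rik and Gm43771, so part of these UMIs is of uncertain origin.

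**Figure D1:**
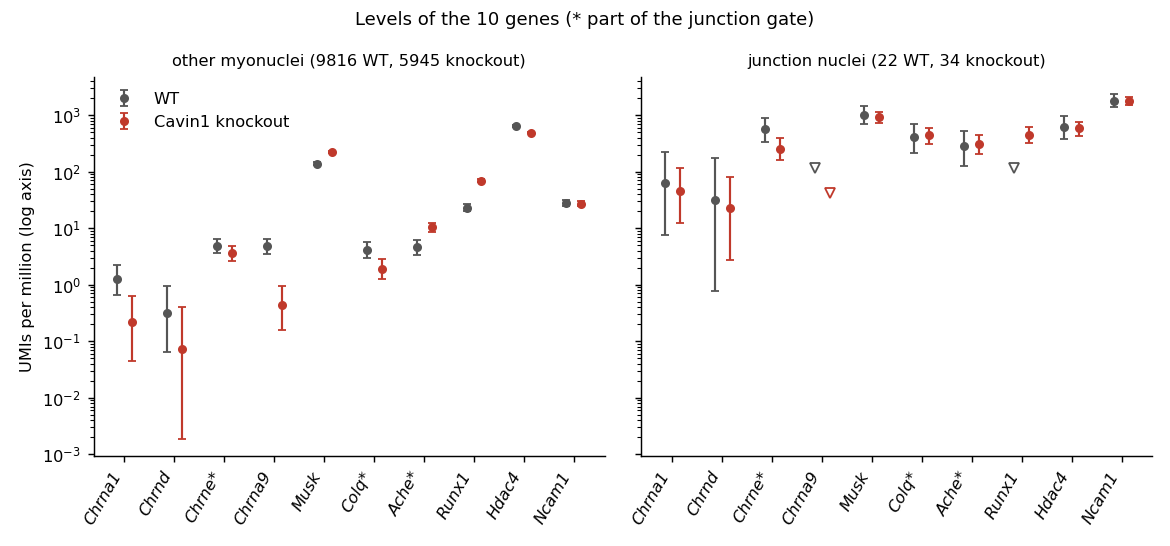
Level of each of the 10 genes in CPM (log axis) in other myonuclei (left) and junction nuclei (right), with WT in grey and the knockout in red. Points are sums over nuclei of 1 library, bars are 95% Poisson intervals, open triangles mark the upper limit where 0 UMIs were counted, and asterisks mark gate genes; Runx1 stood at 23 CPM in WT against 69.4 CPM in the knockout in other myonuclei.

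Musk, the muscle-specific kinase that receives the nerve's agrin signal through Lrp4 and clusters the receptors (chr4:58285960-58374303, plus strand), was the synaptic member with the most UMIs. Junction nuclei held 33 UMIs in WT and 82 in the knockout, 1022 CPM (704 to 1435) and 914 CPM (727 to 1134). Single nuclei ranged from 0 to 6 in WT with a median of 1 and from 0 to 15 in the knockout with a median of 2. The summed levels differed by less than the counting error (ratio 0.886, log2 -0.17, interval -0.76 to 0.47).

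Outside the junction Musk was higher in the knockout. Other myonuclei held 1292 UMIs in WT and 3025 in the knockout, 137 and 222 CPM, a ratio of 1.61 (1.51 to 1.72). At 500 UMIs per nucleus, a Musk UMI was found in 5.93% (5.42 to 6.48) of WT and 8.87% (8.14 to 9.64) of knockout other myonuclei; at their own depth the shares were 10.2% and 28.8%. Knockout nuclei with adipocyte markers, a cell type that should lack Musk, had a Musk UMI in 2.29% of 612 nuclei at a median of 1816 UMIs, against 1795 in other myonuclei. In WT the share was 3.51% of 57 such nuclei at a median of 1090 UMIs, against 711 in other myonuclei. Adipocyte nuclei were the lowest of the knockout non-muscle classes compared: Musk stood there at 13.3 CPM, and at 59.9 CPM in blood endothelial, 68.4 in mural, 77.3 in fibro-adipogenic, 79.8 in macrophage and 99.1 in lymphatic endothelial nuclei, with a UMI in 5.38% (macrophage) to 7.76% (lymphatic endothelial) of nuclei. Each was below the 222 CPM of knockout other myonuclei. The higher level of Musk did not pass 1.5-fold when CPM left out Rn18s, Malat1 and Ttn (log2 0.56, against 0.69) or at 1000 UMIs per nucleus (log2 0.50). The step from other to junction nuclei was 7.55-fold (5.1 to 10.5) in WT and 4.15-fold (3.27 to 5.13) in the knockout.

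Colq, the collagen tail that anchors acetylcholinesterase in the cleft (chr14:31523082-31591343, minus strand), gave 13 UMIs in WT and 39 in knockout junction nuclei, 403 and 435 CPM. With nuclei chosen without Colq the levels were 282 and 309 CPM, a ratio of 1.05 (0.476 to 2.82). Chosen in that way, it was 63.4 times (24.6 to 130) as high in junction as in other myonuclei of WT and 104 times (59.5 to 174) in the knockout. In other myonuclei Colq was lower in the knockout, with 39 and 26 UMIs, 4.14 and 1.9 CPM, 0.463 times the WT level (0.269 to 0.774). The log2 ratio of -1.11 became -0.25 when nuclei were thinned to 500 UMIs and -0.43 at 1000, and was called at neither depth. WT nuclei with fewer than 10 Ttn UMIs stood at 3.35 CPM from 1 UMI. Colq shares its strand with Gm24057 and Gm49387.

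Ache, acetylcholinesterase, the enzyme that ends each signal by splitting acetylcholine (chr5:137287519-137294466, plus strand), gave 9 UMIs in WT and 28 in knockout junction nuclei, 279 and 312 CPM. Chosen without itself the levels were 194 and 254 CPM, a ratio of 1.24 (0.497 to 4.02), and the step over other myonuclei was 42.6-fold (13.9 to 93.3) in WT and 23.5-fold (13.3 to 37.6) in the knockout. In other myonuclei Ache was higher in the knockout, with 43 UMIs in WT and 141 in the knockout, 4.57 and 10.3 CPM, a ratio of 2.24 (1.6 to 3.26). Knockout nuclei with adipocyte markers stood at 1.4 CPM (2 UMIs) and those with blood endothelial markers at 25.7 CPM (5.29 to 75, 3 UMIs), while fibro-adipogenic, macrophage, lymphatic endothelial and mural nuclei gave 0 UMIs. The next gene on the same strand is Ufsp1, also a gate gene (chr5:137294629-137295665), and Ache itself overlaps Mir8116 on its strand and Gm42456 on the other.

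Runx1, a transcription factor that preserves fibres after denervation (chr16:92601466-92826149, minus strand), showed the largest ratio above 1 of the members in other myonuclei. It gave 216 UMIs in WT and 947 in the knockout, 23 CPM (20 to 26.2) and 69.4 CPM (65 to 73.9), 3.02-fold (2.61 to 3.52). At 500 UMIs per nucleus, 1.06% of WT and 2.93% of knockout other myonuclei had a Runx1 UMI, against 1.98% and 10.6% at their own depth. Runx1 is also a gene of blood cells. Nuclei with macrophage markers held 1028 CPM in WT (42 nuclei) against 1154 CPM in the knockout (93 nuclei). Within other myonuclei the 6 macrophage markers were all detected and stood at 49.3 CPM in WT against 21.8 CPM in the knockout, the opposite direction to Runx1, and without nuclei carrying markers of a non-muscle class the log2 ratio of Runx1 was 1.67, against 1.59 with them. In the 2 libraries, nuclei with adipocyte markers held 53.9 CPM (14.7 to 138, 4 UMIs) and 29.5 CPM (21.3 to 39.9). Knockout fibro-adipogenic nuclei held 81.2 CPM (50.3 to 124), blood endothelial nuclei 77 CPM (35.2 to 146) and nuclei with fewer than 10 Ttn UMIs 131 CPM (117 to 147). The knockout level in myonuclei was thus above that of adipocyte nuclei and not above these 3, and the WT level was not above the 198 CPM of WT nuclei with fewer than 10 Ttn UMIs. The part of RNA from other cells in the Runx1 difference was not tested.

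In junction nuclei Runx1 gave 0 UMIs in WT and 40 in the knockout. The knockout level was 446 CPM (318 to 607), where 0 UMIs in WT allow up to 114 CPM, and the interval of the ratio began at 3.72. Of those 40 UMIs, 25 came from 1 nucleus of 2111 UMIs, which had 3 gate UMIs, 11 Ncam1 UMIs and 0 Musk UMIs. Without it the level was 171 CPM (95.8 to 282), an interval that reaches below that WT limit. Runx1 was found in 6 of 34 knockout nuclei.

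Hdac4, a histone deacetylase that represses activity-dependent genes (chr1:91928779-92195699, minus strand), was found at like levels in and outside the junction. Junction nuclei held 20 UMIs in WT and 52 in the knockout, 619 and 579 CPM, which were 0.988 times (0.588 to 1.49) and 1.21 times (0.892 to 1.57) the level of other myonuclei. In other myonuclei it stood at 643 CPM in WT (6047 UMIs) against 485 CPM in the knockout (6618 UMIs), a ratio of 0.755 (0.729 to 0.782) that did not pass 1.5-fold. Hdac4 overlaps Gm37036 on its strand and Gm37048 and Gm26720 on the other.

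Ncam1, a cell adhesion molecule kept at the junction in innervated fibres (chr9:49502136-49798925, minus strand), stood in junction nuclei at 1796 CPM in WT (58 UMIs, interval 1364 to 2322) against 1761 CPM in the knockout (158 UMIs, 1497 to 2058). A single junction nucleus held from 0 to 6 UMIs in WT and from 0 to 22 in the knockout, with a median of 2 in both. The step over other myonuclei was 65.5-fold (48 to 86.7) in WT and 64.9-fold (53.4 to 78.2) in the knockout. Over all other myonuclei the levels were 27.6 CPM in WT (260 UMIs) against 27.2 CPM in the knockout (371 UMIs), a ratio of 0.983 (0.837 to 1.16).

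**Figure D2:**
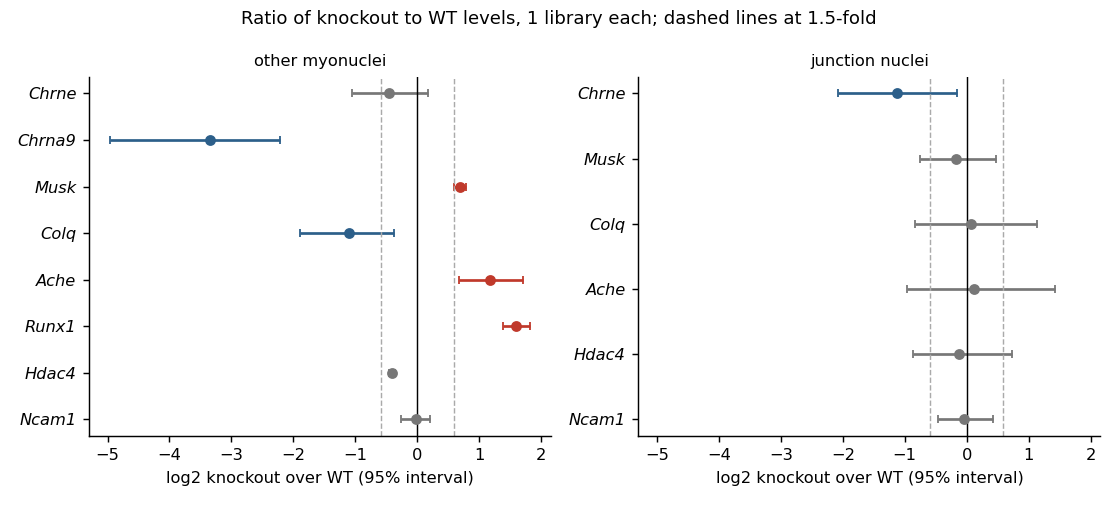
Ratio of the knockout to the WT level on a log2 axis, with 95% intervals, for members with at least 20 UMIs and a WT count above 0 in other myonuclei (left) and junction nuclei (right). Red and blue points passed 1.5-fold upward and downward with an interval that leaves out 0 on this axis, grey points did not; Runx1, at 0 UMIs in WT junction nuclei, is left out on the right.

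Of the 8 members with enough UMIs in other myonuclei, 3 were called higher in the knockout (Musk, Ache and Runx1) and 2 lower (Chrna9 and Colq), where 10.5% of 16642 genes were called higher and 29.5% lower. The median log2 ratio was -0.22 over these 8 and -0.13 over all genes. Ache and Colq are gate genes, so their levels in other myonuclei depend in part on the gate. Ratios varied with gene length. Genes were split by length into 5 groups of like size, and the median log2 ratio ran from 0.07 in the shortest to -0.60 in the longest, of at least 86.6 kb, which holds Musk, Runx1, Hdac4 and Ncam1. In junction nuclei, 1 of the 4 members outside the gate with enough UMIs was called higher (Runx1) and 0 lower, where 10.4% of 1131 genes were called higher and 4.95% lower. The lower level of the gate gene Chrne comes from values that chose the nuclei, and nothing is read from it.

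Outside the 3 gate genes, 2 of 5 members with enough UMIs were called higher in junction than in other WT myonuclei (Musk and Ncam1), against 3.16% of all genes, and 3 of 4 in the knockout (Musk, Ncam1 and Runx1), against 5.92%. Among 1148 genes ranked by the lower bound of this step in both libraries, Ncam1 was at 6, Colq at 7, Chrne at 11, Ache at 20, Musk at 44 and Hdac4 at 391, the 3 gate genes being favoured by the choice of nuclei. Of genes outside the gate and the members, the rule for naming genes gave Ano4, Phldb2, Col4a3, Nkd2, Epb41l4a, Rapgef3, Col19a1, Hs6st2, Ryr3, Prkar1a, Pdzrn4 and B4galnt3. Phldb2, which anchors microtubules below the synapse, stood at 12.2 CPM in other and 1611 CPM in junction nuclei of WT, and at 4.4 and 925 CPM in the knockout. Prkar1a, a regulatory subunit of protein kinase A, stood at 17.2 and 2137 CPM in WT and at 26.3 and 1092 CPM in the knockout.

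The strictness of the gate touched these comparisons. Knockout nuclei with exactly 3 gate UMIs held 659 CPM of Ncam1, 612 CPM of Musk and 94.2 CPM of Phldb2. Knockout nuclei with 4 or more held 2751 CPM of Ncam1, 1185 CPM of Musk and 1672 CPM of Phldb2. In WT the 2 groups were closer, with 2075 and 1651 CPM of Ncam1, 992 and 1038 CPM of Musk, and 1984 and 1415 CPM of Phldb2. With at least 5 gate UMIs, which left 8 WT and 13 knockout nuclei, Ncam1 stood at 1632 and 2739 CPM and was called higher in the knockout (ratio 1.66, log2 interval 0.13 to 1.4), while Chrne (525 and 266 CPM, 9 and 10 UMIs) and Runx1 (0 and 160 CPM, 6 UMIs in the knockout) had fewer than 20 UMIs. With gate UMIs from at least 2 genes, 21 WT and 28 knockout nuclei were left and no member was called (Runx1 0 and 6 UMIs, Chrne 443 and 297 CPM).

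**Figure D3:**
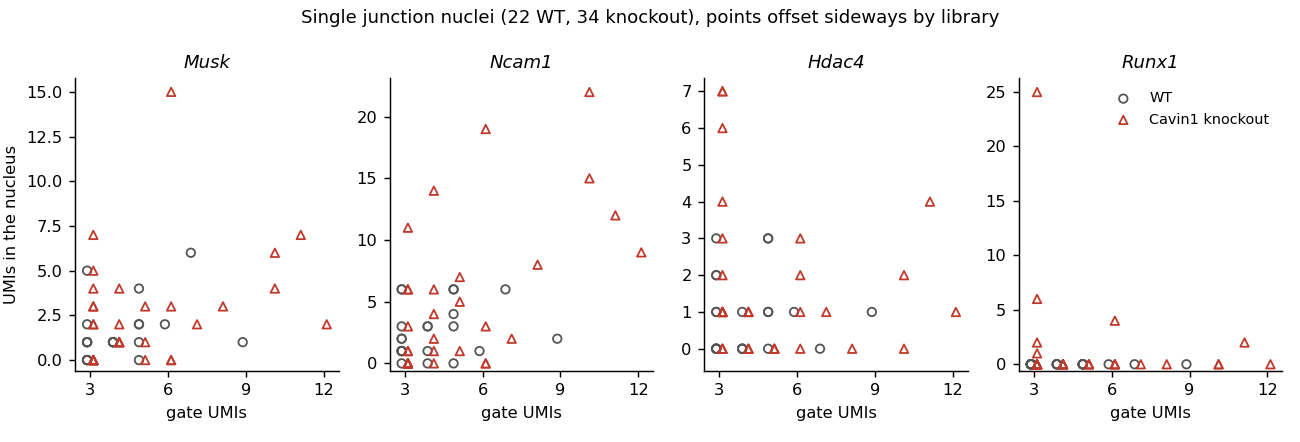
UMIs of Musk, Ncam1, Hdac4 and Runx1 in each junction nucleus (linear axis) against its gate UMIs, with WT as grey circles and the knockout as red triangles; nuclei with equal values lie on top of each other. Ncam1 reached 22 UMIs in a knockout nucleus and 6 in WT, and the 25 Runx1 UMIs of 1 knockout nucleus lie at 3 gate UMIs.

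Further genes of the synapse split much as all genes did outside the junction. Of 38 such genes, 35 had enough UMIs in other myonuclei, where 3 were called higher and 11 lower in the knockout, shares near the 10.5% and 29.5% of all genes. The higher ones were Lrp4, the agrin receptor that acts with Musk (22 and 43.2 CPM, log2 0.97), Prkar1a (17.2 and 26.3 CPM, log2 0.61) and Lama4, a laminin chain (18.8 and 30.6 CPM, log2 0.70). Among the lower ones Nrg1, which encodes neuregulin, went from 52.7 to 3.52 CPM (log2 -3.89), and its receptors Erbb3 from 7.65 to 2.86 CPM and Erbb4 from 127 to 68.9 CPM. Col4a3, Col4a4, Nid2, Lama5, Phldb2, Vav3 and Hs6st2 were lower too. In junction nuclei 0 of 18 were called higher and 7 lower, where 10.4% and 4.95% of all genes were. The 7 were Etv5, Ufsp1, Prkar1a, Col4a3, Phldb2, Scn4a and Vav3, of which Etv5 and Ufsp1 are gate genes and so depend on how the nuclei were chosen. With at least 4 gate UMIs (12 WT and 19 knockout nuclei), none of the first 5 was called. Ratios were then 0.671 (0.468 to 0.975) for Prkar1a, 0.845 (0.492 to 1.53) for Col4a3 and 1.17 (0.767 to 1.86) for Phldb2. Prkar1a was called lower again with at least 5 gate UMIs. With UMIs from at least 2 gate genes, Etv5, Ufsp1, Prkar1a and Col4a3 were called lower.

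Of 17 further denervation-response genes, 12 had enough UMIs in other myonuclei. Of these, 3 were called higher and 3 lower, beside 10.5% and 29.5% of all genes, and the lower share was near that of all genes. The list was not split into genes that rise and genes that fall after denervation, so the counts do not measure that response. Kcnn3, a small-conductance potassium channel known to appear after denervation, stood at 14 CPM in WT against 47.9 CPM in the knockout (log2 1.77). Myod1, a myogenic factor, stood at 1.91 and 5.27 CPM (log2 1.43), and Hdac9, a relative of Hdac4, at 252 and 539 CPM (log2 1.10). Dach2, a repressor in the Hdac4 pathway, was lower, at 42.9 and 10.1 CPM (log2 -2.08), as was Myh8, the perinatal myosin (log2 -1.50). Chrng, Myog, Myh3, Gdf5 and Sln had fewer than 20 UMIs.

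The member ratios depended on the sex-linked transcripts of the nuclei. In Y-marked other myonuclei, Musk stood at 145 CPM in WT (2627 nuclei) against 250 CPM in the knockout (2873 nuclei), a ratio of 1.72 (1.56 to 1.9). In the 716 Xist-marked knockout nuclei it stood at 111 CPM, which was 0.445 times (0.375 to 0.521) the Y-marked knockout level. Ache stood at 4.63, 11.2 and 3.44 CPM in the same order (5 UMIs in the last), the Xist-marked level being 0.335 times (0.0971 to 0.742) the Y-marked one. Both genes were thus called higher than WT in Y-marked and not in Xist-marked knockout nuclei.

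Runx1 was high in both kinds of knockout nuclei, at 15.8 CPM in Y-marked WT, 65 CPM in Y-marked and 86.1 CPM in Xist-marked knockout nuclei. Ncam1 stood at 17.2, 21.9 and 52.4 CPM, and Hdac4 at 601, 482 and 488 CPM. Colq, with 10 UMIs in Y-marked WT and 12 in Y-marked knockout nuclei, was not called among them (ratio 0.546, 0.218 to 1.42). Nuclei led by the type IIb myosin made up 79% of Y-marked WT, 89.3% of Y-marked knockout and 74% of Xist-marked knockout nuclei with a myosin class, and median depths were 1025, 2338 and 1642 UMIs. Within IIb nuclei Musk stood at 148, 261 and 108 CPM in that order. As WT holds no Xist-marked sample, sex, animal and genotype cannot be told apart for the Xist-marked nuclei.

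**Figure D4:**
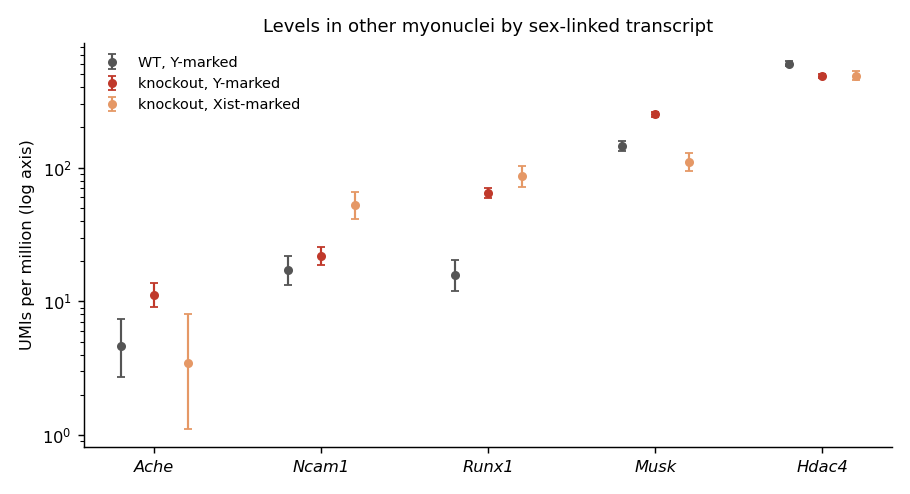
Level of 5 members in other myonuclei in CPM (log axis), for Y-marked WT (grey), Y-marked knockout (red) and Xist-marked knockout nuclei (orange), with 95% Poisson intervals. Musk and Ache were high in Y-marked knockout nuclei, at 250 and 11.2 CPM, and not in the Xist-marked ones, at 111 and 3.44 CPM, while Runx1 was high in both.

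Other myonuclei were next divided by the myosin heavy chain that led in each nucleus (at least 2 UMIs and at least 80% of the UMIs of Myh4, Myh1, Myh2 and Myh7), a division chosen after values had been seen. It gave 4699 WT and 4167 knockout nuclei of type IIb, the fastest fibres, 643 and 460 of type IIx, 326 and 160 of type IIa, and 9 and 30 of type I, the slow fibres. Behind the even total of Ncam1 lay differences in opposite directions. In WT, Ncam1 stood at 20.2 CPM in IIb, 19.6 in IIx and 21.5 in IIa nuclei. In the knockout it stood at 6.06, 69.7 and 155 CPM, which was 0.301 times (0.215 to 0.416) the WT level in IIb, 3.48 times (2.08 to 6.43) in IIx and 6.95 times (3.64 to 15.9) in IIa. Type I nuclei held 47 Ncam1 UMIs in 17 of 30 knockout nuclei (686 CPM) and 0 UMIs in 9 WT nuclei, where 0 UMIs allow up to 473 CPM. Knockout nuclei with adipocyte markers held 7.73 CPM, those with macrophage markers 7.26 CPM and fibro-adipogenic ones 81.2 CPM, and the knockout level in IIb nuclei was not above these. Most non-muscle marker sets were also lower in IIb nuclei of the knockout. Macrophage markers went from 45.4 to 20.3 CPM, blood endothelial from 46.6 to 17.2 and mural from 22.4 to 7.91. Adipocyte markers alone were higher, at 21.4 and 49.2 CPM. The part of RNA from other cells in the Ncam1 levels was not tested.

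Single nuclei rich in Ncam1 held many of these UMIs. Nuclei with at least 3 Ncam1 UMIs numbered 10 in WT and 40 in the knockout and held 16.5% and 53.1% of the Ncam1 UMIs of other myonuclei. A deeper nucleus reaches such a cut more easily, and median depths of other myonuclei were 711 UMIs in WT and 1795 in the knockout. The same cut gave 15% and 41% for Musk and 6.48% and 28.3% for Runx1, so the rise was not particular to Ncam1. The part of depth in it was not tested. The 40 knockout nuclei were 9 IIb, 8 IIx, 6 IIa, 7 type I and 10 with no class. Of them 10 had a gate UMI, 5 had markers of the myotendinous junction and 2 of a non-muscle class. In nuclei with no gate UMI the log2 ratio of Ncam1 was -1.57 in IIb, 2.63 in IIx and 2.67 in IIa, against -1.73, 1.80 and 2.80 in all. In Y-marked nuclei it was -1.26, 4.48 and 3.46, the second resting on 1 WT UMI.

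Runx1 was higher in the knockout in each of these 3 fast classes. WT levels were 19.4, 19.6 and 19.3 CPM in IIb, IIx and IIa, and knockout levels 51.3, 142 and 175 CPM. Within the knockout, IIa and IIx nuclei together held 2.94 times the IIb level of Runx1 and 15 times that of Ncam1, where 14.6% of genes were called higher in that comparison. In WT both ratios were 1.02, 0 of 7 members were called higher, and 11.3% of genes were. The macrophage markers stood at 20.3, 26.8 and 20.1 CPM in the 3 knockout classes (208, 28 and 7 UMIs), and their part in the Runx1 levels was not tested.

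Hdac4 and Musk followed other orders. Hdac4 stood at 696, 475 and 413 CPM in IIb, IIx and IIa nuclei of WT, and at 465, 575 and 647 CPM in the knockout, so the order of the classes was turned round. Musk stood at 150, 85.4 and 189 CPM in WT and at 235, 130 and 224 CPM in the knockout, and its ratio was called in IIb (1.56) and IIx (1.52) and not in IIa (1.19). Ache, at 5.05 and 11.4 CPM in IIb nuclei, had too few UMIs elsewhere.

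Counted by class, 3 of 8 members were called higher and 2 lower in IIb nuclei (10.7% and 23% of genes), 3 of 4 higher in IIx nuclei (11.9% of genes) and 3 of 4 higher in IIa nuclei (12.9% of genes). Of the further denervation-response genes, 3 of 11 were called higher and 3 lower in IIb nuclei, 5 of 6 higher and 1 lower in IIx, and 3 of 6 higher and 1 lower in IIa. The same shares of genes called higher, 10.7%, 11.9% and 12.9%, stand beside these counts, which again are not split by the known direction of each gene. A share of all genes called lower was computed for IIb nuclei only (23%). The 5 in IIx were Kcnn3 (26.5 and 161 CPM), Hdac9 (279 and 639 CPM), the ubiquitin ligases Trim63 (442 and 1052 CPM) and Fbxo32 (684 and 1208 CPM), and Fbxo30 (15 and 29.6 CPM). Fbxo32 in IIb nuclei stood at 1078 and 813 CPM. Dach2 was lower in all 3 classes, for example at 136 and 45.9 CPM in IIx.

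**Figure D5:**
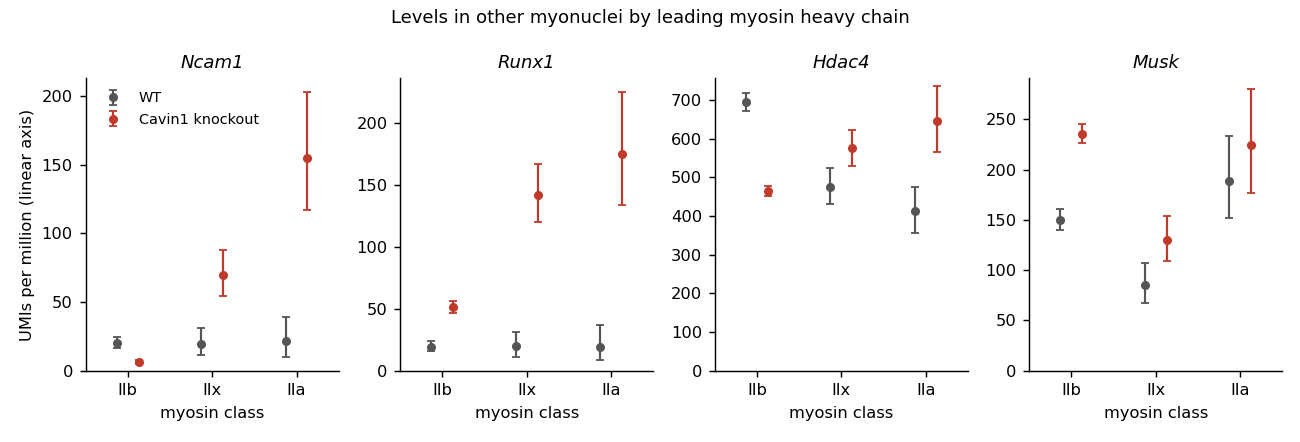
Level of Ncam1, Runx1, Hdac4 and Musk in other myonuclei in CPM (linear axes that differ between panels) by leading myosin, with WT in grey, the knockout in red and 95% Poisson intervals. Ncam1 was level across WT classes, at 19.6 to 21.5 CPM, and ran from 6.06 in IIb to 155 CPM in IIa nuclei of the knockout, while Hdac4 ran in opposite orders in the 2 libraries.

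Nuclei at the myotendinous junction, where fibres join the tendon, held more Runx1 and Ncam1, and less Musk, than all other myonuclei of the knockout. The 103 knockout nuclei with those markers held 152 CPM of Runx1 (115 to 197) and 139 CPM of Ncam1 (104 to 182), against 69.4 and 27.2 CPM. Musk stood at 152 CPM (115 to 197) against 222 CPM (214 to 230), and there were 1 Chrne and 0 Colq UMIs. The 22 WT nuclei of this kind held 3 Runx1, 4 Ncam1 and 1 Musk UMIs, too few for a comparison.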

How the data were processed

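Nuclei of quadriceps were captured on droplets and their polyadenylated RNA counted from the 3′ end, per the labels' protocols. The authors deposited unnormalised UMI counts for each gene in each barcode. The file headers name Cell Ranger 6.0.0; Seurat 4.1.1, STAR and the builds mm10 and GRCm38 are named in the submitters' processing notes. No source used here states whether introns or strand were counted, or how barcodes were called. Barcodes needed 200 detected genes and no more than 5% of UMIs from the mitochondrial genome, which 10272 of 10280 met in WT and 7762 of 7766 in the knockout. Doublets were not removed.

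UMIs were summed per library and class (Python 3.11.15, numpy 2.4.6, scipy 1.17.1). Ratios of CPM used 0.5 UMI added to each sum and an exact interval of the binomial split between the 2 sums. Intervals of sums are exact Poisson and those of shares are Clopper-Pearson. Totals were 9746980 UMIs in WT and 16052317 in the knockout, and UMIs give no measure of variation between mice. Ratios and intervals were checked on simulated counts. A nucleus was given a marker class on at least 3 UMIs from at least 2 of its markers. Y-marked and Xist-marked nuclei carried that transcript and not the other. Positions and overlaps are from GENCODE M21 on GRCm38. Named genes were the 10 members, Etv5 and Ufsp1, the 12 genes with the highest lower bound of the junction step (at least 5 junction UMIs in each library, no predicted models) and list genes past the fold. The members, lists and classes were chosen with earlier results of these data known. Alternatives covered the gate, depth, sex-linked marks, scaling, the added UMI and the filter on low counts. Some genes of the lists enter the counts and are not reported here by name.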

Additional observations from a re-analysis of the deposited data

Results flagged for a closer look

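The ratio of knockout to WT pointed in opposite directions in nuclei of different myosin class for 2 members. For Ncam1, the log2 ratio in IIx nuclei exceeded that in IIb nuclei by 3.53, and that in IIa nuclei exceeded it by 4.53. For Hdac4, the log2 ratio in IIx nuclei exceeded that in IIb nuclei by 0.86, and that in IIa nuclei by 1.23. Each class holds 1 library per genotype, so the difference was not tested in either gene. For Ncam1 the knockout level in IIb nuclei was 6.06 CPM, and type IIb made up 4167 of the knockout nuclei against 160 of type IIa. The WT level in IIb nuclei, 20.2 CPM, was below the 90.6 CPM of WT nuclei with fewer than 10 Ttn UMIs. All non-muscle marker sets but that of adipocytes were lower, like Ncam1, in IIb nuclei of the knockout.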

How the results depend on the processing

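Of 443 values recomputed under alternatives, 369 were classed as the same, 70 as moved and 4 as reversed. Each of the 4 reversed values changed sign. Changes of sign also occurred among values classed as the same or moved, so the classes give no full count of them. Colq in junction nuclei, classed as the same, went from log2 0.07 to -0.60 with at least 2 gate UMIs. Runx1 in WT junction against other nuclei, classed as moved, went from log2 -0.57 to 3.45 at 500 UMIs. The higher share of junction nuclei in the knockout, 0.224 percentage points, became 0.548 with at least 2 gate UMIs, 0.0302 among nuclei with at least 1000 UMIs, and -0.163 when Xist-marked knockout nuclei were set against Y-marked WT nuclei. Of 5 members called in other myonuclei, the count was 2 at 1000 UMIs per nucleus, 3 in Y-marked nuclei (Musk, Ache and Runx1) and 2 with Xist-marked knockout nuclei (Runx1 and Ncam1), where Musk (log2 -0.39) and Ache (log2 -0.33) turned to the lower side. Members called in junction nuclei numbered 2 in the main setting (Runx1 and the gate gene Chrne). With at least 5 gate UMIs neither of them was called, and the count of 1 was Ncam1. The count was also 1 with each gate gene left out of its own gate and with at least 1000 UMIs. It stayed at 1 in Y-marked nuclei and without nuclei holding the repeat transcripts Gm10800 or Gm10801. It was 0 at 500 and 1000 UMIs per nucleus, with Xist-marked knockout nuclei and with UMIs from at least 2 gate genes, the last chosen after seeing the data, as were all alternatives for the myosin classes. Of 2 members outside the gate called higher in junction nuclei of both libraries, the count was 1 at 500 and at 1000 UMIs per nucleus and 0 with Xist-marked knockout nuclei, of which 2 were junction nuclei. Runx1 in knockout junction against other nuclei turned to log2 -0.95 at 1000 UMIs. These alternatives hold fewer nuclei or UMIs; beyond that the cause was not tested. Scaling without Rn18s, Malat1 and Ttn moved the median log2 ratio of all genes by -0.13 in other and -0.11 in junction nuclei, and the share of calls that were higher went from 67.8% to 55.1% in junction nuclei. No paired analysis was possible because each genotype has 1 library, and for the same reason none could be left out.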
